A study of Mus musculus with 8 samples.

Results

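Matrix metalloproteinases and their inhibitors were examined as 10 named genes, namely Mmp2, Mmp14, Mmp15, Mmp16, Mmp17, Mmp24, Timp2, Timp3, Timp4 and Reck. All 10 were found by symbol among the 26711 features of a single-nucleus RNA-seq matrix from mouse primary visual cortex (V1), and each was followed in unique molecular identifiers (UMIs) summed per library and cell type, scaled to a common total for each sum (CPM). The cell types are the 20 annotated by the authors, with 8 excitatory, 5 inhibitory and 7 non-neuronal types.

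All mice were GRfl/fl, with loxP-flanked alleles of Nr3c1, the glucocorticoid receptor (GR) gene, and were collected at day 21 after birth. At birth they received an AAV2/5 vector in which the GfaABC1D promoter, an astrocyte promoter, drives eGFP together with Cre (GR-KO) or with ΔCre, its inactive form (GR-Con). Rearing was either normal (NR) or dark (DR). Each of the 4 combinations of vector and rearing had 2 mice, which form 1 male and 1 female library. The eGFP of these vectors was a membrane-targeted form (eGFP-CAAX). Nuclei without GFP fluorescence were sorted before capture per the study's methods. EGFP UMIs were still read in the astrocytes of every library (64 to 192 each), so the sort cannot be taken to have removed transduced astrocytes. All groups thus carry the floxed alleles and an AAV, and the share of astrocytes that a vector reached was not measured here. Nothing marks mice of a group as pooled, and the p-values measure the spread between single male and female libraries.

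MMPs are zinc endopeptidases that cut extracellular matrix and cell surface proteins. MMP2 is secreted, MMP14, MMP15, MMP16 and MMP24 are membrane-type enzymes with a transmembrane segment, and MMP17 is held by a GPI anchor. TIMPs are secreted inhibitors that bind the active site, TIMP2 also takes part in the activation of proMMP2 by MMP14, and RECK is a GPI-anchored inhibitor of several MMPs that also serves as a WNT7 co-receptor in brain vessels.

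The 8 libraries held 9517 to 15161 nuclei with a median of 14861 to 29223 UMIs per nucleus, and the 2 NR GR-KO libraries had the highest medians (22828 and 29223). Of 101098 barcode sequences, 1220 (1.21%) occurred in more than 1 library. Microglia numbered 2, 4 and 4 nuclei in NR GR-Con male, NR GR-KO male and DR GR-Con female and 573 to 948 in the other 5 libraries, and DR GR-Con female also held only 5 Endo, 3 VLMC and 1 SMC-Peri nuclei. A library entered a level or a fit only with at least 10 nuclei of the type, so microglia entered no comparison between groups. Of 64 marker genes found in the matrix, 57 were highest in the type or class they mark, including all markers of astrocytes, OPC, VLMC and oligodendrocytes. The 7 that were not include every marker found for L4 (Rorb and Rspo1, highest in astrocytes), L5PT (Bcl6 in astrocytes, Pou3f1 in OPC) and L6IT (Osr1 in VLMC, Oprk1 in Sst), and Fezf2 of L5IT (highest in L5NP), so these names rest on the deposited annotation. In astrocytes (924 to 1794 nuclei per library), Cre UMIs numbered 48 and 86 in NR GR-KO, 43 and 57 in DR GR-KO and 0 in all GR-Con libraries. Nr3c1 stood at 207 to 263 CPM in the 4 GR-Con and 268 to 284 CPM in the 4 GR-KO libraries, but 3′ tags can lie outside the deleted part of the gene, so this does not check its loss.

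The sequences before the RefSeq transcription start are shown for Mmp14, Reck and Timp4, which changed in NR GR-KO astrocytes, and for Timp2, which changed with rearing. They are RefSeq sequences of GRCm38.p6 (7 of the 10 members matched), 250 bases up to the base before the start site, on the gene's strand. Capitals mark matches to GGGCGG (GC box) or TTGGCA (NFI half-site) on either strand, and ACANNNTGT (core of the GR element) and TGANTCA (AP-1) were also searched. Mmp14 lies on the plus strand at chr14:54431348-54431597, Reck on the plus strand at chr4:43875280-43875529, Timp4 on the minus strand at chr6:115252206-115252455 and Timp2 on the minus strand at chr11:118355412-118355661. Annotation release vM21 places the Timp2 gene at chr11:118301069-118355740, so by that annotation its window lies inside the gene and not before its start. The windows of Mmp15 and Timp3 also run past the starts given there.
Mmp14: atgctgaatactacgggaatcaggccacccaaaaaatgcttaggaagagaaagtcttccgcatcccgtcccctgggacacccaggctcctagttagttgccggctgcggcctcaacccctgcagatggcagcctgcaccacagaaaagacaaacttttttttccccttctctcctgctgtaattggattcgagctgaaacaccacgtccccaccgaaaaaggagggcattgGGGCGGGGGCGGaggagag
Reck: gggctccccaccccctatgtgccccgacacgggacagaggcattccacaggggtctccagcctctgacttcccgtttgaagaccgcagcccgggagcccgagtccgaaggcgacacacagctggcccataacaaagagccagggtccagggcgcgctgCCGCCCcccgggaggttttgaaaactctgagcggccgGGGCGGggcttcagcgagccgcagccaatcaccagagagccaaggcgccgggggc
Timp4: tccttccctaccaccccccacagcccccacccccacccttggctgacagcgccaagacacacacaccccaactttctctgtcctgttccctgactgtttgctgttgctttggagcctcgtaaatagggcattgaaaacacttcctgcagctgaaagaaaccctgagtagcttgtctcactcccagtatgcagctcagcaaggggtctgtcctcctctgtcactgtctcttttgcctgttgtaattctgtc
Timp2: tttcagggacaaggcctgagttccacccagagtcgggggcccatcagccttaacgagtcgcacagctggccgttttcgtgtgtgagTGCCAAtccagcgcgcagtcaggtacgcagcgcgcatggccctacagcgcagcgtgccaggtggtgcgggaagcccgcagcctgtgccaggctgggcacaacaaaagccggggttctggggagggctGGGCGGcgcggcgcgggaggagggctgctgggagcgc
None of the 7 windows held ACANNNTGT or TGANTCA, which occurred in 5.84% and 6.75% of 32851 promoter windows of this length. GGGCGG occurred in 32.7% of all windows and in 6 of the 7 members (Mmp14, Mmp15, Mmp24, Timp2, Timp3 and Reck). In Mmp14 a pair of adjoining copies spanned bases -19 to -8 from the start. Timp4 held none of the 4 motifs, and TTGGCA (12.3% of windows) occurred only in Timp2. GC content was 53.6% for Timp4 and 55.2% for Mmp14, near the median of 52.4% over all windows, against 68.4% for Reck and 68% for Timp2.

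Levels across cell types are described for each gene separately, as CPM averaged over the libraries (± SD), and levels of different genes were not compared. VLMC sums also held markers of other cells. Excitatory markers took 0.0248% to 0.102% of VLMC UMIs, against 0.0873% to 0.105% in L6CT. Astrocyte markers took 0.0637% to 0.220% of VLMC UMIs, against 0.283% to 0.372% in astrocytes. The part of other cells' RNA in the levels of VLMC, Endo and SMC-Peri was not tested. The secreted gelatinase Mmp2 was highest in OPC (10.2 ± 1.85 CPM, n = 8) and VLMC (11.7 ± 13.5, n = 7, from 2.77 to 40.6), followed by microglia (6.30 ± 1.59, n = 5). In neurons Mmp2 stayed at or below 0.185 CPM, with 0 UMIs in L6b, Lamp5 and ChC. Mmp14, the main cellular activator of proMMP2, was highest in VLMC (24.2 ± 11.1, n = 7), then astrocytes (16.5 ± 6.35, n = 8) and OPC (9.29 ± 2.46), while the 8 excitatory types lay between 0.0913 and 0.238 CPM. Mmp15 was highest in OPC, at 70.3 ± 24.4 CPM (n = 8), and OPC was above SMC-Peri (23.9 ± 22.1, n = 6, 25 UMIs in all) in 5 of 6 libraries. ChC (9.62 ± 3.504, n = 3, 6 UMIs in all) and astrocytes (5.49 ± 1.42) came next.

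Mmp16 was read in every type, from 56.3 ± 13.1 CPM in microglia to 2468 ± 177 in L6b, the deepest cortical neurons. It was next highest in L5NP (1343 ± 55.2), OPC (1079 ± 107), L6CT (948 ± 160.0) and L6IT (912 ± 97.2), and L5PT stood lowest among the excitatory types (183 ± 22.1). L6b exceeded L5NP, L5NP exceeded OPC and L6IT exceeded Sst in 8 of 8 libraries each. Mmp17 was highest in L6CT (74.7 ± 15.2), Lamp5 (56.5 ± 8.41), L6IT (55.1 ± 6.04) and L5IT (42.2 ± 8.80) and was at 3.63 ± 0.827 in astrocytes. Mmp24 was highest in neurons, at 28.96 (L4) to 48.3 CPM (Vip) in 12 of the 13 neuronal types, and L5PT stood lower (19.2 ± 2.20). The vascular types followed at 17.0 ± 10.3 in SMC-Peri (n = 6), 16.9 ± 11.6 in VLMC (n = 7) and 15.95 ± 6.03 in Endo (n = 7), and L5PT was above Endo in only 5 of 7 libraries. OPC (8.85), microglia (3.88), astrocytes (3.06) and Oligo (2.21) were lowest.

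Among the inhibitors, Timp2 was highest in microglia (83.1 ± 11.2, n = 5) and Oligo (52.6 ± 5.70), and L6b led the neurons (39.1 ± 8.88). Timp3, which binds to matrix, was highest in VLMC (386 ± 189, n = 7), astrocytes (134 ± 11.0) and Endo (115 ± 27.4), and was at 3.29 in microglia. Timp4 was highest in astrocytes (46.2 ± 9.74) and OPC (29.7 ± 3.17), astrocytes being above OPC in 8 of 8 libraries, with 10.8 (L2/3) to 21.5 CPM (ChC) in most other neurons and 5.15 to 8.90 in L6b, L5PT and L6CT. Reck was broad, from 8.91 in microglia to 107 ± 56.5 in VLMC (n = 7), with OPC at 87.5 ± 10.3, astrocytes at 84.7 ± 21 and Oligo at 65.7 ± 7.25. In the 4 GR-Con libraries alone, astrocytes rather than VLMC were highest for Reck, and the other 9 members kept their highest type.

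**Figure D1:**
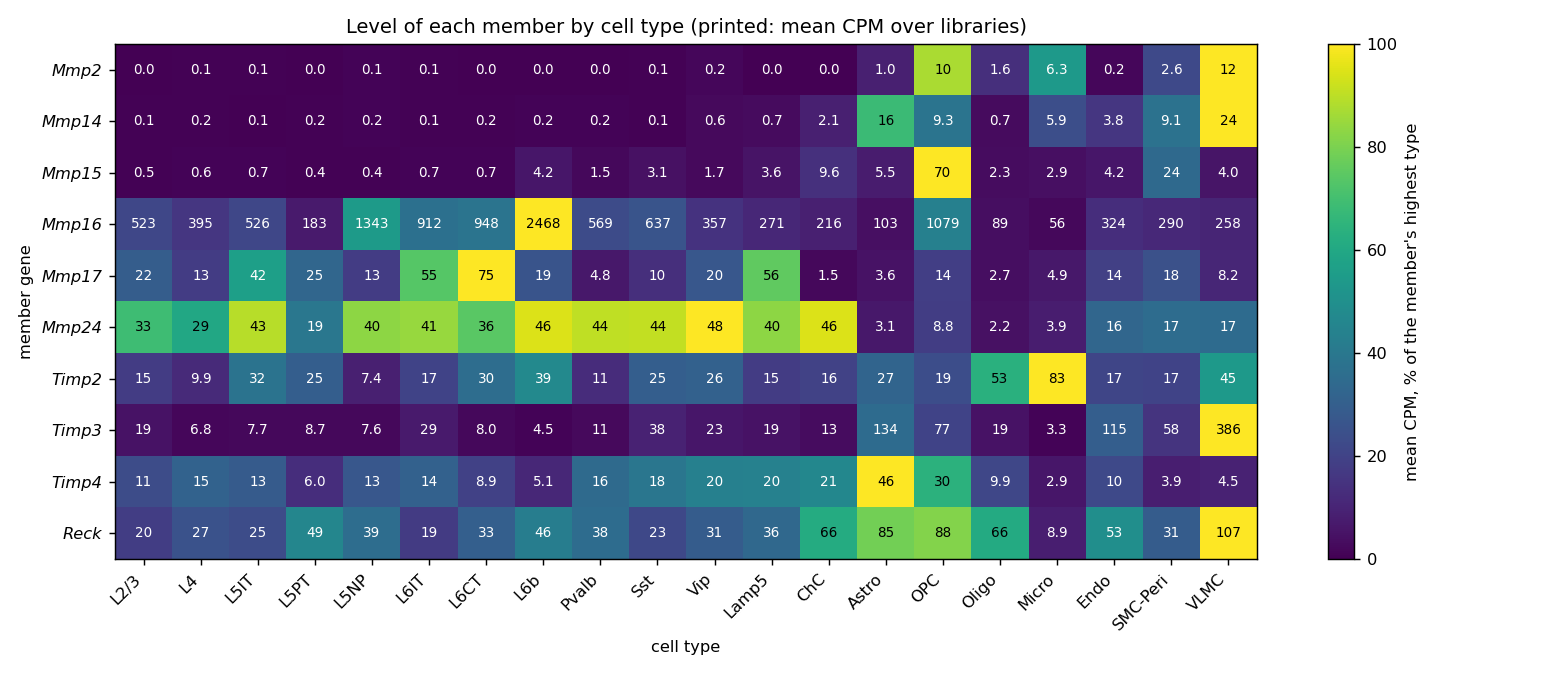
Heat map of the 10 members (rows) by 20 cell types (columns), where the printed value is the mean CPM over libraries with at least 10 nuclei and the colour gives it as a percentage of that gene's highest type. Mmp2 and Mmp14 are both high in VLMC, OPC and microglia, astrocytes reach 68.1% of the highest type for Mmp14 and 8.75% for Mmp2, Mmp24 is highest in the neuronal columns, and Mmp16 peaks at 2468 CPM in L6b.

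Neighbours in these orders were compared within libraries by a two-sided exact sign-flip permutation test on log2(CPM + 1). No pair of the 190 passed after Benjamini-Hochberg adjustment (smallest adjusted p = 0.114, exact permutation test), and 29 pairs had an unadjusted p under 0.05. In 13 of the 114 pairs measured in all 8 libraries the higher type led in 8 of 8, which gives p = 0.00781, the smallest this exact permutation test allows. With 190 pairs no pair could pass unless many more reached that floor, and pairs in fewer libraries have a higher one. The pairs were also ordered by the values tested. The test thus cannot show that neighbours are alike. The order within any list above is told apart only as far as these library counts go. Neighbours such as L6CT and L6IT for Mmp16 (higher in 4 of 8) or VLMC and OPC for Reck (3 of 7) were not ordered alike across libraries.

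Among the members themselves, Mmp2 and Mmp14 had the most similar profiles over the 20 types (Pearson r = 0.813 on log2(CPM + 1)), and Mmp2 and Mmp24 the most opposed (r = -0.629). Among 13626 features reaching 10 CPM in some type, Tead3 (r = 0.953), Tnfsf12 (0.951) and Gm42047 (0.95) followed Mmp14 most closely over the 20 types. Mir124a-1hg, the host transcript of a neuronal miRNA, followed Mmp24 (r = 0.972). For the remaining members the closest feature was Ints8 for Mmp2 (0.906), Rlbp1 for Mmp15 (0.846), Gpr45 for Mmp16 (0.87), Hs3st5 for Mmp17 (0.861), Fkbp5 for Timp2 (0.777), Cyp4f17 for Timp3 (0.888), Gm26803 for Timp4 (0.869) and Dmpk for Reck (0.824). These correlations describe cell types that share libraries and depth, and rarer types rest on few UMIs.

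Genotype was compared first in astrocytes, the cells in which the vector's promoter is active, under NR. Reck and Timp4, both inhibitors, fell and Mmp14 rose, while the other 6 members tested did not pass. Reck stood at 116 and 104 CPM in NR GR-Con male and female and at 69.7 and 60.5 in NR GR-KO male and female. Both GR-KO libraries lay below both GR-Con libraries, with means of 109.9 ± 8.42 and 65.1 ± 6.50 (SD, n = 2 each). The log2 fold change was -0.82 ± 0.15 (SE), with an adjusted p of 1.98e-06 by the edgeR likelihood ratio test and 0.0037 by the quasi-likelihood F-test. Here and below, the SE of a log2 fold change was worked back from the likelihood ratio statistic. It thus holds nothing beyond the fold change and its unadjusted p. Reck passed in all 4 fits that left out 1 library (log2 -0.92 to -0.74).

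Mmp14 stood at 9.86 and 7.17 CPM in NR GR-Con male and female and at 20.9 and 18.1 in NR GR-KO male and female (72, 48, 176 and 210 UMIs). The GR-KO libraries were again on 1 side, with means of 8.52 ± 1.90 and 19.5 ± 1.94 (n = 2 each). The log2 fold change was 1.12 ± 0.21 (SE), with an adjusted p of 4.47e-06 by the likelihood ratio test and 0.0101 by the quasi-likelihood F-test in edgeR, and all 4 fits without 1 library passed. Timp4 stood at 62.6 and 54.5 CPM in NR GR-Con male and female and at 46.0 and 36.6 in NR GR-KO male and female. The means were 58.6 ± 5.71 and 41.3 ± 6.65 (n = 2 each). The log2 fold change was -0.57 ± 0.16 (SE), with adjusted p = 0.00587 by edgeR's likelihood ratio test and 0.035 by its quasi-likelihood F-test. As for Reck and Mmp14, the 2 groups did not overlap, but the share of all genes that separate in this way was not counted. The Timp4 call was lost without NR GR-Con male (log2 -0.48, adjusted p = 0.25) and without NR GR-KO female (-0.43, adjusted p = 0.195).

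Among all 14493 genes tested in NR astrocytes the likelihood ratio test called 7.11% and the quasi-likelihood F-test 5.15%, against 3 of 9 members tested by both. The median log2 fold change was 0.03 over the members tested and 0.00127 over all genes. The 6 members that did not pass had log2 fold changes of -0.11 (Mmp15) to 0.25 (Timp2, adjusted p = 0.531 by edgeR), and Timp3, a matrix-bound inhibitor, was at 122 to 133 CPM in all 4 NR libraries (log2 -0.02 ± 0.14). Mmp2 had too few counts to be tested in NR, at 1 and 1 UMIs in NR GR-Con male and female against 19 and 6 in NR GR-KO male and female.

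Markers of other cells were low in astrocytes but moved in part with genotype. The 4 excitatory markers took 0.0171% and 0.0225% of astrocyte UMIs in NR GR-Con against 0.0253% and 0.0258% in NR GR-KO, and the 4 oligodendrocyte markers 0.00977% and 0.0118% against 0.0133% and 0.0170%. The 5 VLMC markers were lower in both GR-KO libraries, at 0.00125% and 0.00140% in NR GR-Con against 0.000829% and 0.00121% in NR GR-KO, and VLMC is among the highest types for Mmp14 and Reck. The astrocyte markers themselves took 0.341% and 0.372% against 0.327% and 0.330%. Microglial (0.00188% to 0.00256%), endothelial (0.000388% to 0.000901%) and SMC-Peri markers (0.000209% to 0.000462%) overlapped between genotypes, and no list had a marker at 0. Their part in the 3 changes was not tested, nor was that of depth. Mmp14 was at or below 0.238 CPM in every excitatory type and at 0.728 in Oligo. Timp4 lies inside Syn2 on the opposite strand (its 10314 bases share 90 with annotated Syn2 exons), and the log2 fold change of Syn2 in NR astrocytes was 0.27 ± 0.17, with adjusted p = 0.51 by edgeR.

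**Figure D2:**
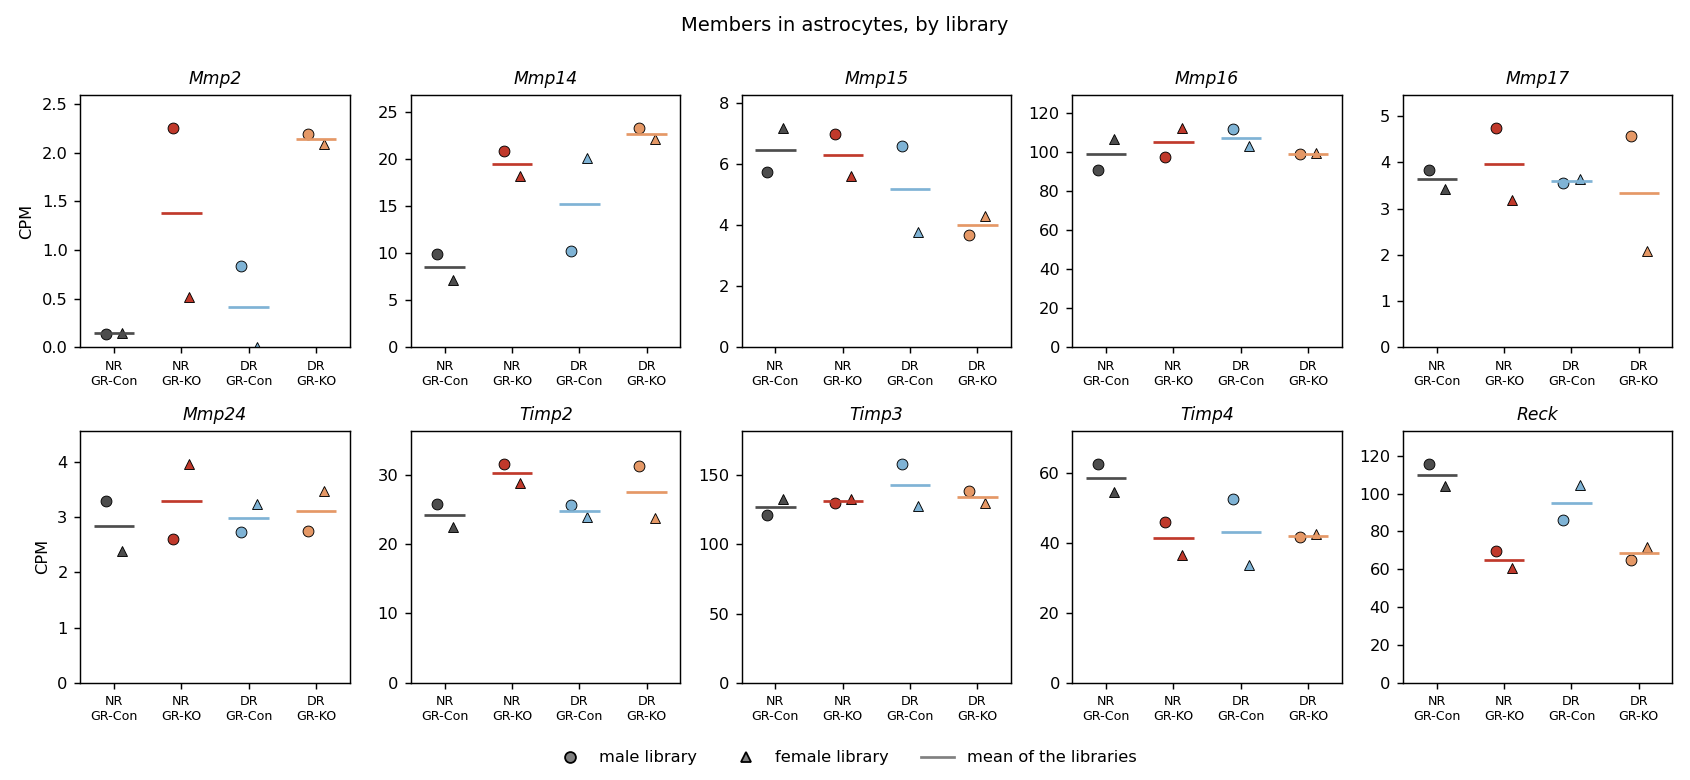
CPM of each member in astrocytes (y axis, from 0) in the 8 libraries by group (x axis), with circles for male and triangles for female libraries and a line at their mean. NR GR-KO lies apart from NR GR-Con for Mmp14 (above 18 against below 10 CPM), Timp4 and Reck, whereas the 2 DR GR-Con libraries differ from each other for Mmp14 (10.3 and 20.1 CPM) and Timp4 (52.6 and 33.6 CPM).

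In DR, no member passed between GR-KO and GR-Con astrocytes, by the likelihood ratio test (2 of 10 at an unadjusted p under 0.05, Reck and Mmp2) or the quasi-likelihood F-test (2 of 10) or DESeq2. The background among 14139 genes was 0.736% for the likelihood ratio test and 0.0% for the quasi-likelihood F-test. Reck stood at 86.0 and 104 CPM in DR GR-Con male and female and at 65.2 and 71.7 in DR GR-KO male and female, so the GR-KO libraries were again the lower (log2 -0.45 ± 0.21, adjusted p = 0.668 by edgeR). Mmp14 stood at 10.3 and 20.1 in DR GR-Con male and female and at 23.2 and 22.1 in DR GR-KO male and female, all above DR GR-Con (log2 0.61 ± 0.35, adjusted p = 0.971). Without DR GR-Con female, whose value was near that of GR-KO, Mmp14 passed (log2 1.14, adjusted p = 4.91e-06), and without DR GR-Con male so did Reck (-0.55, adjusted p = 0.000809), each against a single DR GR-Con library. With sex as a term Mmp2 passed in DR (adjusted p = 0.0471 against 0.170 without the term), on 8 and 0 UMIs in DR GR-Con male and female and 12 and 15 in DR GR-KO male and female. Timp4 was 52.6 and 33.6 CPM in DR GR-Con male and female and 41.5 and 42.4 in DR GR-KO male and female, which overlap (log2 -0.02 ± 0.28).

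With both rearings in 1 fit and rearing as a term, Reck again fell and Mmp14 and Mmp2 rose in GR-KO astrocytes (3 of 10 members, where 4.79% of 14754 genes were called). Timp4 did not pass there (log2 -0.30 ± 0.18, adjusted p = 0.516 by edgeR's likelihood ratio test and 0.465 by its quasi-likelihood F-test). Reck had a log2 fold change of -0.64 ± 0.13, with adjusted p = 6.62e-05 by the likelihood ratio test and 0.0105 by the quasi-likelihood F-test in edgeR. It alone passed the latter (1 of 10 members, 2.85% of genes), for which Mmp14 (0.86 ± 0.22, adjusted p = 0.00327 by edgeR's likelihood ratio test) had 0.0545 and Mmp2 (adjusted p = 0.00522) had 0.118. Mmp2 rests on 62 UMIs, namely 1, 1, 8 and 0 in GR-Con and 19, 6, 12 and 15 in GR-KO libraries (each NR male, NR female, DR male and DR female), so that all DR GR-KO values lay above all GR-Con values but NR GR-KO female (0.518 CPM) lay below DR GR-Con male (0.838 CPM). The Mmp2 call was lost without NR GR-Con male (adjusted p = 0.0532). The 4 Reck values of GR-KO (60.5 to 71.7 CPM) lay below the 4 of GR-Con (86.0 to 116 CPM), but the share of all genes that separate in this way was not counted.

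Whether the genotype difference itself differed between NR and DR was tested by the interaction. No member passed in astrocytes or in any of the 14 other types with enough nuclei (0 of 124 pairs by edgeR's likelihood ratio test and by its quasi-likelihood F-test, 6 by each at an unadjusted p under 0.05). The background over all gene and type pairs was 0.181% and 0.00276%. In astrocytes the difference of log2 fold changes (NR less DR) was -0.38 ± 0.24 for Reck, 0.50 ± 0.43 for Mmp14 and -0.56 ± 0.33 for Timp4. Without DR GR-Con male, which leaves 1 DR GR-Con library, Mmp14 (0.89, adjusted p = 0.0384) and Timp4 (-0.95, adjusted p = 0.00375) passed by edgeR's likelihood ratio test, and no other fit without 1 library called any of the 3. With all libraries, a smaller change in DR than in NR was not shown for any of the 3.

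Rearing was compared within genotype in astrocytes. No member passed between DR and NR in GR-Con (0 of 9, 1 at an unadjusted p under 0.05 by the likelihood ratio test and 0 by the quasi-likelihood F-test) or in GR-KO (0 of 10, 0 at an unadjusted p under 0.05 by both edgeR tests), and DESeq2 called none. The background was 0.147% and 0.0% of genes in GR-Con and 2.85% and 1.79% in GR-KO, by the likelihood ratio test and the quasi-likelihood F-test. The lowest adjusted p were those of Mmp15 (log2 -0.55 ± 0.29, 0.379 by edgeR's likelihood ratio test) and Mmp14 (0.30 ± 0.17, 0.437) in GR-KO. The only unadjusted p under 0.05 was that of Mmp14 in GR-Con (log2 0.81 ± 0.39, unadjusted p = 0.0388, adjusted p = 1.0, by edgeR), where DR GR-Con female alone stood above both NR GR-Con libraries by more than 1 CPM. Reck differed by -0.22 ± 0.21 in GR-Con and 0.15 ± 0.14 in GR-KO.

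Other genes of the system were counted in NR astrocytes from lists chosen with earlier results of these data known. Of 18 other genes (further MMPs and Timp1), 14 were in the matrix, 3 could be tested and 1 fell, Mmp28, a secreted MMP (23.3 ± 0.621 to 15.04 ± 1.32 CPM, log2 -0.69 ± 0.17, adjusted p = 0.0023 by edgeR's likelihood ratio test and 0.0279 by its quasi-likelihood F-test). The gelatinase Mmp9 had 629 UMIs in all nuclei, and its level was highest in microglia, at 1.21 CPM. Of 16 genes of activation, inhibition and clearance, 13 were tested, and 4 rose and 0 fell by the likelihood ratio test (7.11% of all genes called, in either direction), whereas only Spock1 rose by the quasi-likelihood F-test (5.15% of all genes). The largest of these were Cav1, a caveolar coat protein (log2 1.64 ± 0.43, from 15 UMIs in GR-Con), Spock1, a testican proteoglycan (18.1 ± 4.65 to 36.2 ± 4.24 CPM, log2 0.94 ± 0.21, adjusted p = 0.000274 by the likelihood ratio test) and Cd44, a hyaluronan receptor that can dock MMPs (10.6 ± 0.460 to 19.5 ± 4.83 CPM, log2 0.80 ± 0.22). The quasi-likelihood adjusted p in edgeR was 0.0571 for Cav1, 0.0204 for Spock1 and 0.056 for Cd44. The fourth gene, named after its values were seen, was the testican Spock3 (12.5 ± 2.67 to 20.7 ± 0.0629 CPM, log2 0.66 ± 0.19, adjusted p = 0.0111 by the likelihood ratio test and 0.0630 by the quasi-likelihood F-test in edgeR).

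Of 11 substrates, 1 rose and 0 fell, beside the same 7.11% of all genes, namely Tnc, the matrix glycoprotein tenascin-C (74.7 ± 11.8 to 221 ± 5.64 CPM, log2 1.50 ± 0.16, adjusted p = 8.4e-18 by the likelihood ratio test and 0.00096 by the quasi-likelihood F-test in edgeR). None of the 2 ADAM sheddases tested (Adam10, Adam17) or of 3 tested RECK partners in WNT7 signalling passed. The proconvertase Furin, which activates membrane-type MMPs, had a log2 fold change of -0.07 ± 0.24. Between DR and NR in GR-KO astrocytes, 1 gene of activation (Pcsk6, log2 0.60 ± 0.13, adjusted p = 0.000446) and 1 substrate (Tnc, 0.51 ± 0.14, adjusted p = 0.0158, both by edgeR) rose, beside 2.85% of all genes, and none of the lists had a call between genotypes in DR.

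Genotype was also compared outside astrocytes, where few pairs of any gene were called. In NR, 0 of 122 member and type pairs in 16 types passed by the likelihood ratio or the quasi-likelihood F-test in edgeR (4 and 3 at an unadjusted p under 0.05), beside 0.37% and 0.0318% of all pairs. The largest of them was Mmp14 in L2/3, with log2 2.26 ± 0.63 at no more than 0.228 CPM in any NR library (adjusted p = 0.0942 by edgeR). It rests on 4 and 1 UMIs in NR GR-Con and 17 and 16 in NR GR-KO, and the astrocyte markers in L2/3 took 0.00174% and 0.00177% of UMIs in NR GR-Con against 0.00223% and 0.00273% in NR GR-KO. Mmp14 was at 16.5 CPM in astrocytes, and the part of their RNA was not tested. With sex as a term, each group holding 1 male and 1 female library, it passed (0.0200), as did Timp3 in OPC, which was lower in GR-KO (log2 -0.50 ± 0.17, 0.0300 against 0.285 without the term). Timp3 in OPC stood at 86.3 and 98.7 CPM in NR GR-Con male and female and at 61.1 (male) and 72.5 (female) in NR GR-KO. In these OPC libraries the astrocyte markers took 0.0313% and 0.0373% in GR-Con against 0.0298% and 0.0300% in GR-KO, the excitatory markers 0.0154% and 0.0209% against 0.0242% and 0.0260%, and the oligodendrocyte markers 0.0144% and 0.0157% against 0.0206% and 0.0227%. The markers of VLMC, the highest type for Timp3, took 9.82e-05% and 0.000229% against 0.000283% and 0.000481%. The part of these cells' RNA was not tested. In DR, 1 of 110 pairs passed, Mmp15 in L6CT, at 14, 7, 26 and 24 UMIs in DR GR-Con male and female and DR GR-KO male and female (0.436, 0.193, 1.27 and 0.964 CPM). Its adjusted p was 0.0339 by edgeR's likelihood ratio test and 0.479 by its quasi-likelihood F-test, by which 0 of 110 pairs passed (9 at an unadjusted p under 0.05), and DESeq2 called 0 and gave this pair no adjusted p. With sex as a term it passed (0.0126), and so did Mmp17 in L4 (log2 0.57 ± 0.18, 0.0143 against 0.113 without the term) and in L5IT (0.45 ± 0.14, 0.0172 against 0.0864). In DR the oligodendrocyte markers were higher in GR-KO in all 3 types, at 0.00502% and 0.00526% against 0.00910% and 0.00923% in L6CT, 0.00467% and 0.00648% against 0.00938% and 0.00982% in L4, and 0.00962% and 0.00966% against 0.0143% and 0.0158% in L5IT. Their part was not tested, and Mmp17 was at 2.67 CPM in Oligo. The call of Mmp15 was lost without DR GR-Con female (0.107), DR GR-KO female (0.719) or DR GR-KO male (1.0). The background in DR was 0.496% and 0.00462% of pairs.

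**Figure D3:**
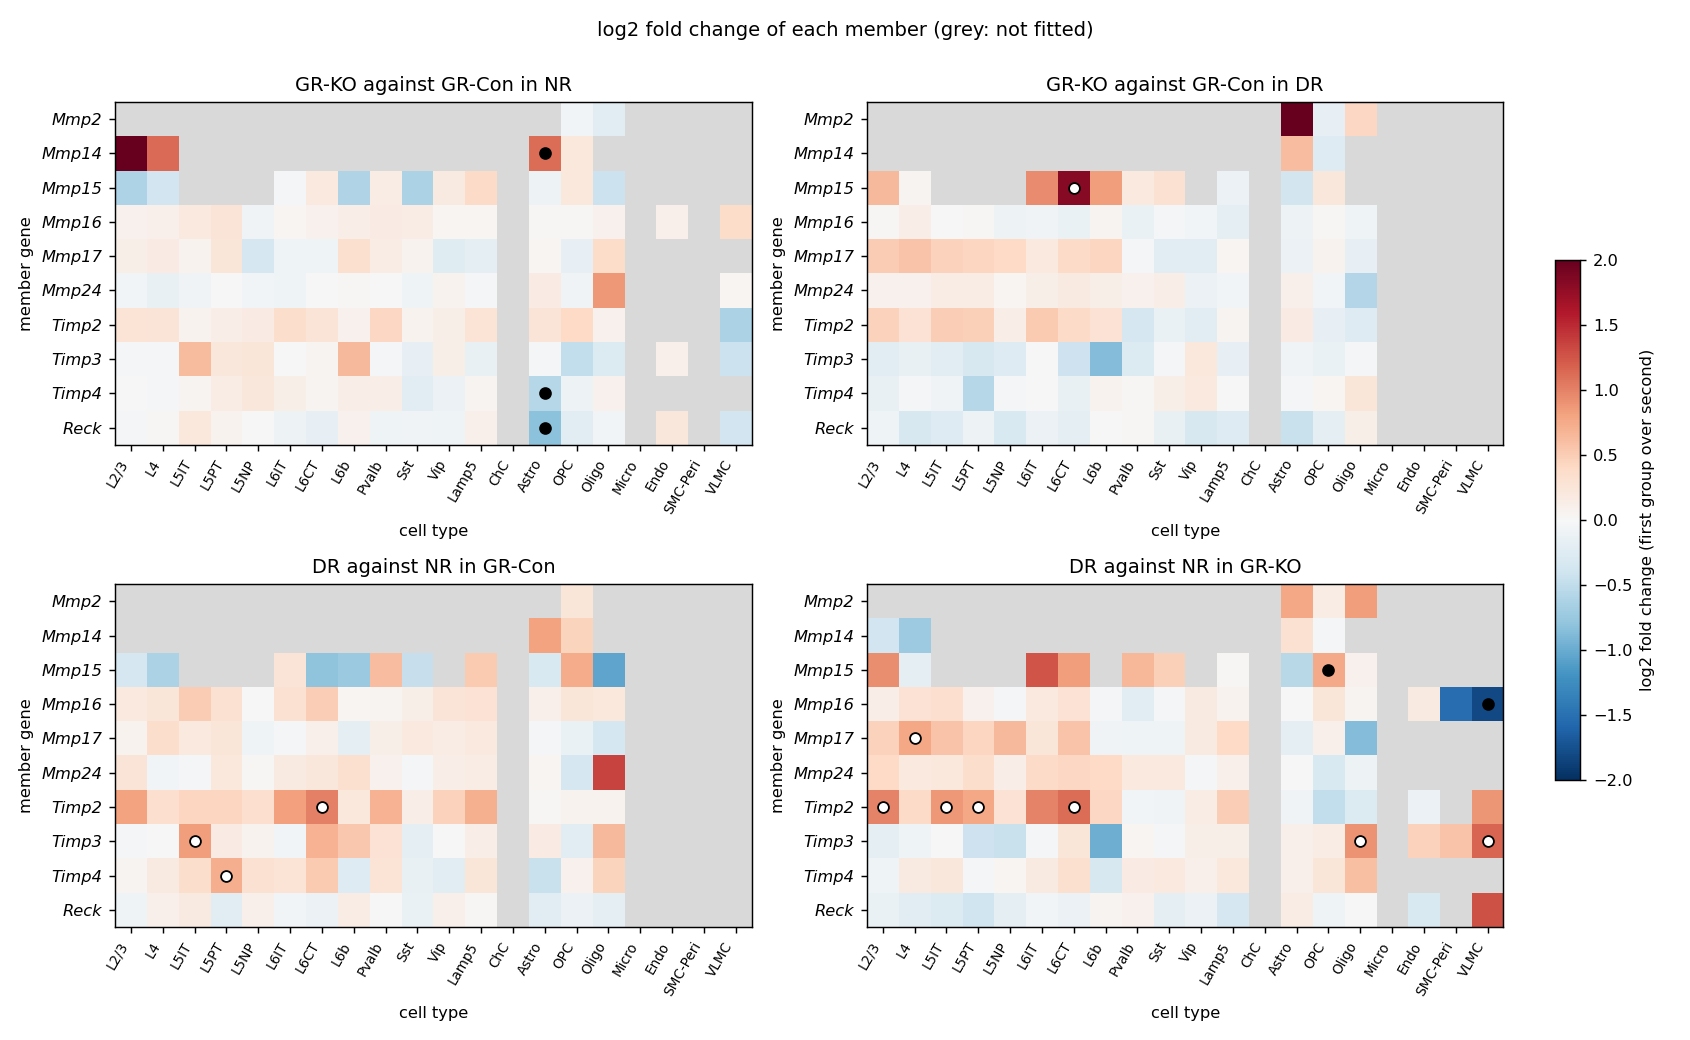
log2 fold change (colour, red higher in the first-named group) of each member (rows) by cell type (columns) in 4 comparisons, with a dot where the likelihood ratio test passed (filled where the quasi-likelihood F-test passed as well) and grey where no fit was made. Filled dots mark Mmp14, Timp4 and Reck in astrocytes between genotypes in NR, and Mmp15 in OPC and Mmp16 in VLMC between DR and NR in GR-KO.

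The calls between DR and NR lay in excitatory neurons, OPC, oligodendrocytes and VLMC. The within-genotype comparisons reuse the libraries of the genotype comparisons above, so their values are given side by side only. Between DR and NR in GR-KO, 9 of 122 pairs passed, 8 higher and 1 lower in DR, beside 3.71% of all pairs, and 2 of 122 passed the quasi-likelihood F-test beside 0.793%. In GR-Con, 3 of 110 pairs passed, all higher in DR (2.4% of all pairs), and 0 of 110 passed the quasi-likelihood F-test (19 at an unadjusted p under 0.05, background 0.531%). DESeq2 called 9 pairs in GR-KO and 3 in GR-Con, not all of them the same pairs. It did not call Timp3 in L5IT (adjusted p = 0.244) or Timp4 in L5PT (0.447) in GR-Con, nor Timp3 in Oligo (0.157) or VLMC (0.119) in GR-KO, and gave Timp2 in L5PT no adjusted p in GR-KO. Shares over all pairs are given only for the likelihood ratio test and the quasi-likelihood F-test. Counts by DESeq2 or with sex as a term thus have no background beside them. With sex as a term 6 pairs passed in GR-Con and 16 in GR-KO. Those gained in GR-Con were Timp2 in L2/3 (0.0186), Mmp16 in L5IT (0.0212) and L6CT (0.0372) and Mmp15 in OPC (0.0395), and those gained in GR-KO were Mmp17 in L2/3 (0.00597) and L5IT (0.00153), Mmp24 in L2/3 (0.0121) and L6IT (0.0341), Timp2 in L6IT (1.56e-05), Mmp16 in Pvalb (0.0463) and Reck in VLMC (0.00626). Over both genotypes, a fit added after these results were seen, 13 of 114 pairs passed, all higher in DR (5.55% of pairs), and 7 of 114 by the quasi-likelihood F-test (3.54%). With sex as a term 16 of 114 passed there, the additional ones being Mmp16 in L4 (log2 0.27 ± 0.11, adjusted p = 0.0239 against 0.0973 without the term, by edgeR), Mmp17 in L5IT (0.38 ± 0.13, 0.0238 against 0.0506) and Timp4 in Oligo (0.54 ± 0.19, 0.0374 against 0.0831).

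Timp2, the inhibitor that also assists proMMP2 activation, was the member called most often, and was higher in DR in several excitatory types. In L6CT it stood at 19.6 and 15.1 CPM in NR GR-Con male and female, 27.2 and 14.7 in the male and female NR GR-KO libraries, 24.95 and 45.05 in DR GR-Con male and female, and 48.8 and 41.5 in DR GR-KO male and female. Every DR library but DR GR-Con male was above all NR libraries. The log2 fold change was 1.12 ± 0.30 in GR-KO (adjusted p = 0.00714 by the likelihood ratio test and 0.112 by the quasi-likelihood F-test in edgeR) and 1.00 ± 0.31 in GR-Con (0.0481 and 0.284, and 0.0656 by the likelihood ratio test with sex as a term). Over both genotypes it was 1.06 ± 0.23, with adjusted p = 0.000188 and 0.0241, and all 8 fits without 1 library passed.

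In L2/3, Timp2 was at 9.42 and 8.77 CPM in NR GR-Con male and female and 13.7 and 8.90 in the male and female NR GR-KO libraries. In DR it was at 11.9 and 20.9 in GR-Con male and female and 25.9 and 17.4 in GR-KO male and female, so only DR GR-Con male fell within the NR range. The log2 fold change over both genotypes was 0.89 ± 0.21 (adjusted p = 0.000751 by the likelihood ratio test and 0.0248 by the quasi-likelihood F-test in edgeR). In L5PT the 4 NR libraries (17.0 to 21.4 CPM) and the 4 DR libraries (22.5 to 39.1 CPM) did not overlap, with log2 0.60 ± 0.14 over both genotypes (0.00192 and 0.0791). The share of all genes in L5PT that separate in this way was not counted. L5IT (0.65 ± 0.20, 0.0283 and 0.101) and L6IT (0.91 ± 0.27, 0.0209 and 0.0964) passed the likelihood ratio test too (in 3 and 2 of 8 fits without 1 library, with adjusted p up to 0.202 and 0.139), while L4 (0.36 ± 0.20), L5NP (0.31 ± 0.23) and L6b (0.31 ± 0.18) did not.

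The Timp2 log2 fold change between DR and NR was above 0 in all 8 excitatory types in GR-Con (0.21 to 1.00) and in GR-KO (0.29 to 1.12), where 9.53% and 15.7% of the genes tested in all 8 types were above 0 throughout. Between GR-KO and GR-Con the Timp2 log2 fold change was also above 0 in all 8 excitatory types, in NR (0.07 to 0.35, beside 6.92% of genes) and in DR (0.14 to 0.52, beside 9.32%), although no Timp2 pair passed. Other members kept 1 sign too. Mmp24 was above 0 in all 8 types between DR and NR in GR-KO. Between genotypes in DR, Mmp17 and Mmp24 were above 0 and Timp3 and Reck below 0 in all 8 (7.83% of genes were below throughout). The 8 types come from the same libraries, so their signs are not independent. In astrocytes the Timp2 difference between DR and NR was 0.02 ± 0.24 in GR-Con and -0.07 ± 0.17 in GR-KO, and in Oligo over both genotypes -0.09 ± 0.12. The inhibitory types had values above 0 in GR-Con too, with 0.71 ± 0.35 in Lamp5, 0.69 ± 0.28 in Pvalb, 0.46 ± 0.21 in Vip and 0.13 ± 0.17 in Sst, none of which passed (adjusted p = 0.276 to 1.0 by edgeR's likelihood ratio test). In GR-KO they were 0.49 ± 0.29, -0.06 ± 0.28, 0.15 ± 0.31 and -0.07 ± 0.20, and whether excitatory and inhibitory types differ was not tested. In L6CT the oligodendrocyte markers took 0.00487% to 0.0109% of UMIs in NR and 0.00502% to 0.00923% in DR libraries, and the microglial markers 0.00139% to 0.00167% in NR and 0.00118% to 0.00132% in DR, so the first list overlapped between rearings and the second was lower in DR. The astrocyte markers in L6CT took 0.00272% to 0.00287% in NR and 0.00347%, 0.00355% and 0.00394% in 3 DR libraries, and DR GR-Con male, the library with the lowest Timp2 in DR, was the exception (0.00207%). In L2/3 they took 0.00174% to 0.00273% in NR and 0.00207% to 0.00415% in DR, where DR GR-KO female alone lay within the NR range. Timp2 was at 26.7 ± 3.49 CPM in astrocytes, and the part of astrocyte RNA was not tested. In L5PT the DR GR-KO libraries (0.0145% and 0.0163%) exceeded the NR GR-KO libraries (0.00555% and 0.0136%) in oligodendrocyte markers, whose part was not tested. Timp2 spans Cep295nl on the same strand (10141 bases shared), and Cep295nl, with 1558 UMIs in all, also rose in L6CT over both genotypes (log2 1.66 ± 0.31, adjusted p = 5.12e-06 by edgeR's likelihood ratio test).

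Single libraries carried much of these calls within genotype. In GR-KO, Timp2 in L6CT and L5IT lost its call without either DR GR-KO library (adjusted p = 0.0707 to 0.457), L5PT passed only without NR GR-KO female (0.0337), a library with 59 L5PT nuclei, and L2/3 was lost without DR GR-KO male (0.453) or NR GR-KO female (0.116). In GR-Con, Timp2 in L6CT passed without DR GR-Con male (log2 1.34, adjusted p = 5.13e-10) and was lost without any other library (0.0532 to 0.891). Over both genotypes the calls in L2/3, L5PT and L6CT held in all 8 such fits.

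**Figure D4:**
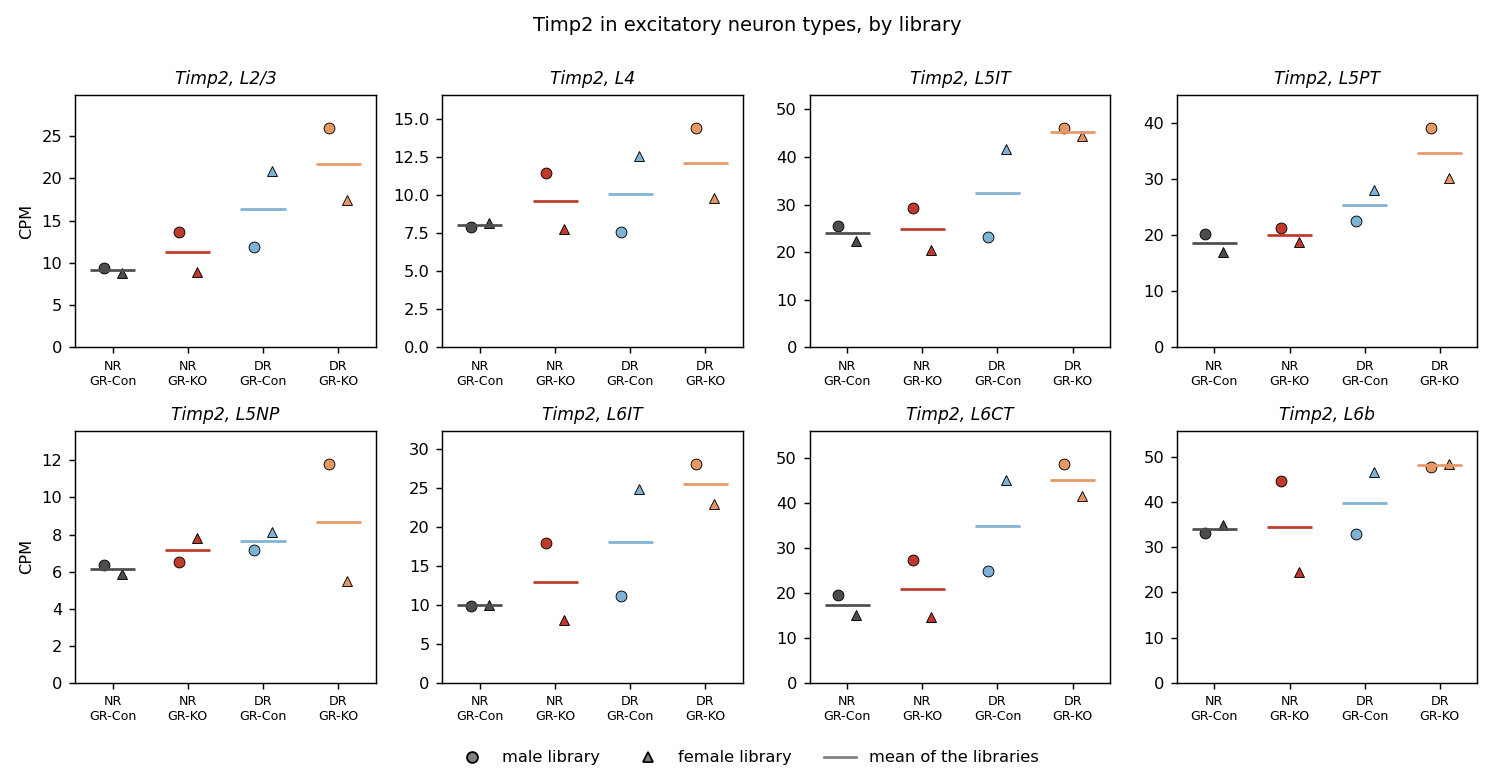
Timp2 CPM (y axis, from 0) in the 8 excitatory types, one panel each, by group (x axis), with circles for male and triangles for female libraries and a line at their mean. In L6CT the DR GR-KO libraries stand at 48.8 and 41.5 CPM against 27.2 and 14.7 in NR GR-KO, and DR GR-Con male lies near the NR libraries in most panels.

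Mmp15 and Mmp16, both membrane-type MMPs, changed with rearing outside neurons. Mmp15 in OPC, the type in which it was highest, stood at 76.2 and 38.1 CPM in NR GR-KO male and female and at 89.6 and 100.4 in DR GR-KO male and female, so both DR libraries were the higher. The log2 fold change was 0.76 ± 0.20 (adjusted p = 0.0145 by the likelihood ratio test and 0.0205 by the quasi-likelihood F-test in edgeR), and the call was lost without DR GR-KO female (adjusted p = 0.125) or NR GR-KO female (log2 0.37, adjusted p = 0.357), each by edgeR. In GR-Con it stood at 61.1 and 35.4 in NR and 93.2 and 68.0 in DR (male and female), and over both genotypes the log2 fold change was 0.76 ± 0.19 (0.00633 and 0.0469). DESeq2 did not call it over both genotypes (adjusted p = 0.130) or in GR-Con (0.942) and gave no adjusted p in GR-KO, and the edgeR call over both genotypes was lost without DR GR-Con male (0.0561) or DR GR-KO female (0.0661). In OPC the excitatory markers took 0.0154% to 0.0260% of UMIs in NR and 0.0110% to 0.0165% in DR, the oligodendrocyte markers 0.0144% to 0.0227% and 0.0108% to 0.0147%, and their part was not tested.

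In VLMC, the fibroblast-like cells of the meninges and vessels, Mmp16 fell and Timp3 rose in DR within GR-KO. Mmp16 stood at 412 and 351 CPM in NR GR-KO male and female and at 104 and 150.2 in DR GR-KO male and female (149, 252, 23 and 45 UMIs). The log2 fold change was -1.81 ± 0.34 (adjusted p = 3.33e-06 by the likelihood ratio test and 0.00544 by the quasi-likelihood F-test in edgeR), and all 4 fits without 1 library passed. Timp3 stood at 158 and 262 CPM in NR and 428 and 694 in DR (log2 1.16 ± 0.42, adjusted p = 0.0306 and 0.0661), and was lost without DR GR-KO female (0.409) or NR GR-KO male (0.174). These libraries hold 20 to 65 VLMC nuclei each, and the background among 6109 genes in VLMC was 19.9% by the likelihood ratio test and 15% by the quasi-likelihood F-test. In the same libraries the excitatory markers took 0.0836% and 0.0991% of VLMC UMIs in NR and 0.0248% and 0.0304% in DR, and the VLMC markers 0.0620% and 0.0684% in NR and 0.127% and 0.163% in DR. The astrocyte markers took 0.0869% and 0.0926% in NR and 0.208% and 0.220% in DR, and the endothelial markers 0.00470% and 0.00767% in NR and 0.0108% and 0.0144% in DR. Timp3 was next highest after VLMC in these types (134 CPM in astrocytes and 115 in Endo). Mmp16 was at 183 to 2468 CPM in excitatory types and Timp3 at 4.49 to 28.6. The part of neuronal, astrocyte or endothelial RNA in either change was not tested.

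Timp3 and Timp4 each lie inside a synapsin gene on the opposite strand (Timp3 in Syn3, with 1733 of its 49135 bases in annotated Syn3 exons). The host was also called where they were called in neurons. The calls in L5IT and L5PT come from GR-Con, where 3 of 110 pairs passed beside 2.4% of all pairs, and 0 by the quasi-likelihood F-test. Over the cell types, Pearson r with the host was 0.219 for Timp3 and 0.638 for Timp4. In L5IT in GR-Con, Timp3 stood at 6.002 and 4.534 CPM in NR and 9.72 and 9.23 in DR (male and female), a log2 fold change of 0.84 ± 0.24 (adjusted p = 0.0112 by edgeR's likelihood ratio test and 0.0796 by its quasi-likelihood F-test), and Syn3 there changed by 0.81 ± 0.14 (4.09e-07 and 0.00626). In the same libraries the VLMC markers took 5.88e-05% and 5.97e-05% of L5IT UMIs in NR and 0.000539% and 0.000602% in DR, and the endothelial markers 0.000824% and 0.000895% in NR and 0.000972% and 0.00113% in DR. VLMC and Endo are among the highest types for Timp3, and the part of their RNA was not tested. In L5PT in GR-Con, Timp4 stood at 5.16 and 4.53 in NR and 7.85 and 8.35 in DR (0.73 ± 0.21, 0.0217 and 0.121), and Syn2 changed by 0.58 ± 0.14 (0.00215 and 0.0423). The astrocyte markers took 0.00176% and 0.00199% of L5PT UMIs in NR GR-Con and 0.000863% and 0.00133% in DR GR-Con. In L6CT over both genotypes, Timp4 (0.42 ± 0.13, 0.00998 and 0.0355) rose with Syn2 (0.63 ± 0.10, 3.21e-08 and 0.00403). There the astrocyte markers took 0.00272% to 0.00287% of UMIs in NR. In DR they took 0.00207% in GR-Con male and 0.00347% to 0.00394% in the other libraries. Timp4 was highest in astrocytes, and the part of their RNA was not tested. Timp3 in L5IT held only without DR GR-Con female (otherwise adjusted p = 0.0615 to 0.383), Timp4 in L5PT was lost without NR GR-Con female (0.632) or male (0.387), and Timp4 in L6CT without DR GR-KO female (0.0559) or NR GR-Con male (0.0939). Whether antisense reads of the host enter these counts was not tested.

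In Oligo, Timp3 rose and its host did not pass. It stood at 8.36 and 16.9 CPM in NR GR-KO male and female and at 23.2 and 23.0 in DR GR-KO male and female (log2 0.90 ± 0.29, adjusted p = 0.0459 and 0.17 by the likelihood ratio and quasi-likelihood F-tests in edgeR), where Syn3 had -0.14 ± 0.16 (adjusted p = 0.85). It held only without NR GR-KO female (otherwise adjusted p = 0.24 to 0.431). Of Oligo UMIs in NR GR-KO and in DR GR-KO, the astrocyte markers took 0.00986% and 0.0100% against 0.00781% and 0.00812%, the excitatory markers 0.0174% and 0.0191% against 0.0104% and 0.0113%, and the oligodendrocyte markers 1.53% and 1.65% against 1.43% and 1.47%. The endothelial and SMC-Peri markers were lower in DR too (0.000418% and 0.00104% against 0.000242% and 0.000319%, and 0.000169% and 0.000264% against 5.32e-05% and 0.000141%), and the part of these cells' RNA was not tested. Mmp17 in L4 rose in DR within GR-KO, from 13.8 and 8.75 to 19.3 and 17.6 CPM (male and female, log2 0.77 ± 0.25, adjusted p = 0.0398 and 0.124), and was lost without DR GR-KO female (0.344) or male (0.485). Over both genotypes, Mmp24 rose in L2/3 (log2 0.33 ± 0.09, adjusted p = 0.00264 by the likelihood ratio test and 0.00992 by the quasi-likelihood F-test in edgeR), where the NR libraries spanned 28.7 to 30.4 and the DR libraries 35.5 to 39.2 CPM without overlap, and all 8 fits without 1 library passed. The share of all genes in L2/3 whose NR and DR libraries do not overlap was not counted. Mmp24 shares 637 bases with BC029722 on the opposite strand. Mmp16 in L5IT (0.42 ± 0.13) and L6CT (0.39 ± 0.12) and Mmp24 in L6CT (0.32 ± 0.10) also passed, but in only 3, 4 and 2 of those 8 fits.

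**Figure D5:**
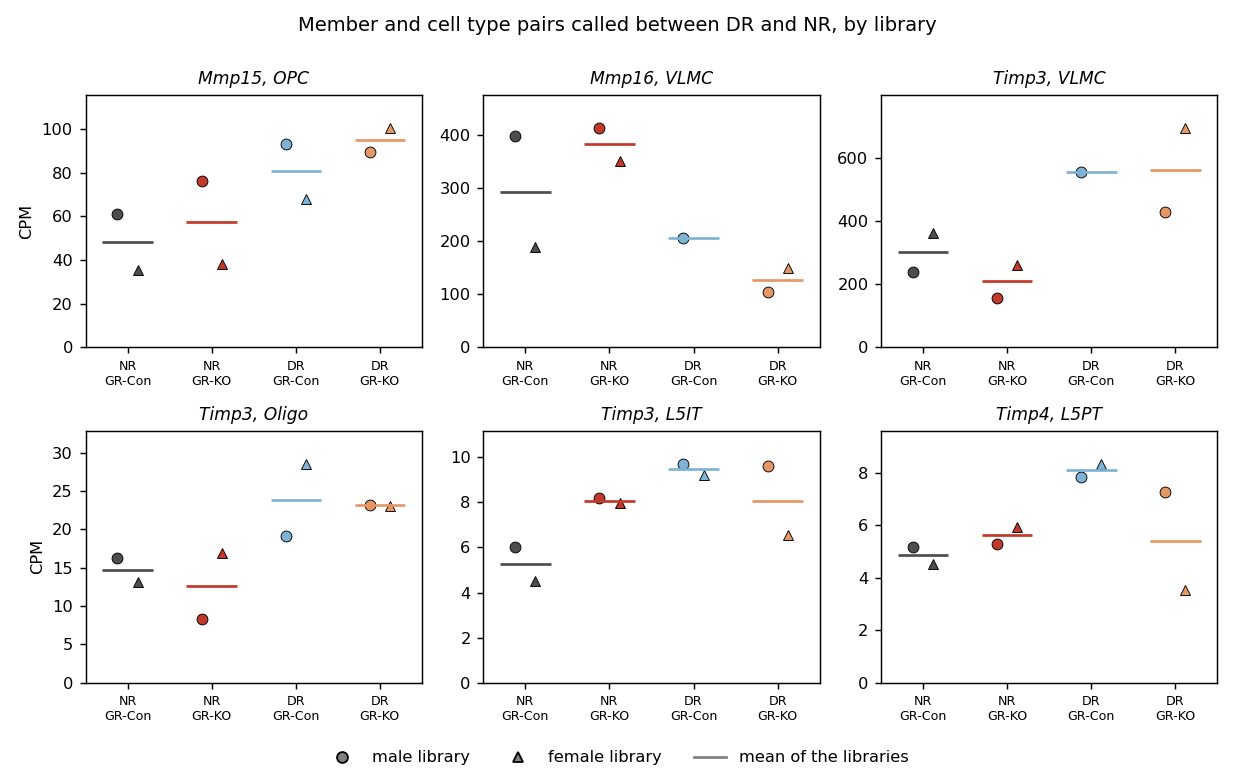
CPM (y axis, from 0) of 6 member and cell type pairs called between DR and NR in 1 genotype, by group (x axis), with circles for male and triangles for female libraries and a line at their mean. DR GR-Con has 1 VLMC library, since the female one held 3 nuclei, and Timp4 in L5PT separates DR from NR in GR-Con but not in GR-KO, where DR GR-KO female is lowest.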

How the data were processed

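Single nuclei from mouse V1 were captured by 10x 3′ v4 chemistry in 8 libraries. Per the study's methods, the authors sorted GFP-negative nuclei, aligned and counted with Cell Ranger 8.0.1 (mm10, custom annotation with eGFP), removed nuclei of low gene count, doublets and very high counts, and clustered in Seurat 5.3.0. The deposited matrix holds UMI counts per gene and nucleus, which are not normalized, and the deposited table also holds the percent of mitochondrial UMIs, which was not used here.

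UMIs were summed per library (named by group and sex in the cell table) and deposited cell type. Libraries with at least 10 nuclei of a type entered, and CPM used all features. Tests were fitted to all genes of a type in edgeR 4.0.16 (R 4.3.3) after its expression filter and TMM, with the study's likelihood ratio test (Benjamini-Hochberg adjusted p, threshold 0.05), and with the quasi-likelihood F-test and DESeq2 1.42.0 as alternatives. The fits were also run on simulated counts with planted changes larger than most of those reported here. That run cannot show how reliably smaller changes are found. The SE of a log2 fold change is its absolute value divided by the square root of the likelihood ratio statistic. Levels were ranked by mean log2(CPM + 1), over fewer than 8 libraries in rare types. All 10 members are named with their levels. Of each pathway list up to 3 called genes with the largest fold change in NR astrocytes are named, and of each member the features most alike over cell types. The members and lists were chosen with earlier results of these data known, and the comparison of DR with NR over both genotypes was added after the data were seen. The libraries held 168632129 to 288774016 UMIs. CPM precision follows from the UMIs of a cell type within a library, which in astrocytes were 5462791 to 11585703 and in rare types fewer. Promoters are from RefSeq (GRCm38.p6).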

Additional observations from a re-analysis of the deposited data

How the results depend on the processing

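In NR astrocytes, 3 members were called under every alternative (DESeq2, its size factors, no filter, the quasi-likelihood F-test and sex as a term) and 2 to 3 with 1 library left out. The highest cell type stayed for 9 or 10 of 10 members. Other counts moved. With sex as a term the count went from 0 to 2 outside astrocytes in NR, from 0 to 1 in DR astrocytes, from 1 to 3 outside them in DR, from 3 to 6 for DR against NR in GR-Con, from 9 to 16 in GR-KO and from 13 to 16 over both genotypes. With the quasi-likelihood F-test the genotype count outside astrocytes in DR became 0 (as with DESeq2 and without the filter), the rearing counts outside astrocytes 0 in GR-Con, 2 in GR-KO and 7 over both genotypes, and the astrocyte count over both rearings 1. Leaving out 1 library gave, for genotype, 0 to 4 outside astrocytes in NR, 0 to 2 in DR astrocytes (1 of the 2 being Mmp2 against a lone DR GR-Con library with 0 UMIs), 0 to 6 outside them in DR and 2 to 4 in astrocytes over both rearings. For rearing it gave 0 to 2 (GR-Con) and 0 to 1 (GR-KO) in astrocytes, 1 to 11 (GR-Con), 3 to 15 (GR-KO) and 6 to 15 (both genotypes) outside them, and 0 to 3 for the interaction. The most for rearing in GR-Con (11) and for the interaction (3) came without DR GR-Con male. Where 1 library of a group was left, it was assumed to vary like the others. No share over all genes is given for the fits with sex as a term or with 1 library left out. Their counts therefore cannot be set against a background. The cause of these moves was not tested. Of 396 alternative values for 37 log2 fold changes (each a member in 1 type and 1 comparison), 288 kept direction and side of the threshold, 100 lost the call, 5 gained it and 3 changed sign, all for Timp4 in astrocytes in DR (main log2 -0.02, 0.018 with sex as a term, and -0.32 to 0.37 with 1 library left out). No paired analysis was possible by replicate number, because the cell table does not carry the replicate numbers of the labels. The only block this design allows is sex, since each group holds 1 male and 1 female library, and that block is the fit with sex as a term. Within 1 rearing or genotype that fit has 4 libraries and leaves little from which to estimate the spread. Its adjusted p can be far smaller. For Reck in NR astrocytes it was 5.51e-15 against 1.98e-06 without the term, by edgeR's likelihood ratio test. Calls gained only with sex as a term are therefore weak.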
